A study of Mus musculus with 4 samples.

Results

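The Cd36+ D. neurons are mature olfactory sensory neurons of the dorsal part of the mouse main olfactory epithelium that carry transcripts of Cd36. They were taken as the 197 cells to which the deposited annotation gives the label "Cd36+ D." in the clustering made without odorant receptor genes, out of 9539 clustered mature neurons and 21809 cell barcodes. Because that clustering used the other genes, the receptor of each neuron was not used to choose it, whereas levels of other genes in the cluster are given as a description. The receptor make-up of these neurons and their other genes were set against the plain Dorsal cluster (1482 neurons), the dorsal cluster that the authors named after no marker gene, and against Cd36+ V., the ventral cluster with Cd36 (515 neurons).

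The data come from 4 male C57BL/6 mice (C57BL/6J in the study's methods) aged 8 weeks, which form a single group with no treatment and no genetic change named in the labels. Each animal gave 1 library: its olfactory epithelium was dissociated with papain, live nucleated cells were sorted, and their transcripts were captured with the 10x Genomics Chromium 3′ chemistry. Each mouse is 1 replicate. The edgeR tests of counts share their estimate of variance between genes. Their p-values and SEs can thus be smaller than the spread of 1 gene between these 4 animals would give.

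Each mature olfactory sensory neuron transcribes a single odorant receptor gene from a repertoire of many, and the epithelium is divided into a dorsal zone, marked by the quinone reductase Nqo1, and a ventral zone, marked by transcription factors such as Nfix. Receptor genes fall into class I, an old family that lies in a single cluster on mouse chromosome 7 and is used mostly by dorsal neurons, and class II, which is spread over many chromosomes. Cd36 is a membrane scavenger receptor that binds long-chain fatty acids and oxidized lipids, and it takes part in lipid uptake in fat, muscle and taste cells.

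Library totals ranged from 23157467 to 32382702 UMIs (unique molecular identifiers, each counting 1 captured transcript). The median UMIs per Cd36+ D. neuron were 5658, 4041, 7503 and 3888 in mice 1 to 4, against 5229, 4202, 5972 and 3644 in Dorsal neurons. Of 21755 distinct barcodes, 54 occurred in more than 1 library, and 1 Cd36+ D. neuron carried such a barcode.

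The cluster held 52, 63, 39 and 43 neurons in mice 1 to 4. These made up 1.99%, 2.75%, 2.28% and 1.47% of the clustered neurons of each mouse (2.12% ± 0.532, SD, n = 4). The Wilson 95% interval of the lowest share reached from 1.10% to 1.98% and that of the highest from 2.15% to 3.50%, so that mice 2 and 4 differed by more than counting error. Of the neurons in the 5 dorsal clusters, 6.35%, 10.4%, 7.01% and 5.71% were Cd36+ D. When the authors clustered the same cells with the receptor genes kept in, 187 of the 197 neurons were again called Cd36+ D., 9 became Cd36+ V. and 1 became Dorsal.

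Both markers went with the label. Levels are given as UMIs per 10000 UMIs summed over the neurons of a mouse. Cd36 stood at 9.66, 8.88, 8.54 and 9.51 in the Cd36+ D. neurons of mice 1 to 4, and at 0.0122, 0.00741, 0.00538 and 0.00652 in Dorsal neurons. No other dorsal cluster had a mean above 0.0224, while Cd36+ V. neurons reached 9.20 ± 0.616 (SD, n = 4), a range that overlapped that of the Cd36+ D. neurons. Nqo1 stood at 16.8, 22.6, 23.9 and 19.0, close under the Dorsal values of 22.6, 31.2, 26.7 and 20.2, and far above the mean of 0.834 in Cd36+ V. neurons. Nfix had a mean of 0.238 ± 0.178 in Cd36+ D. neurons against 5.01 ± 0.404 in Cd36+ V. neurons. Omp, which marks mature olfactory neurons, had a mean of 60.4 ± 4.49, against 66.5 ± 3.76 in Dorsal neurons, and Gap43 and Gng8, which mark immature neurons, stayed at or below 0.117 in each mouse.

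Per cell, at least 1 Cd36 UMI was found in 97.0% ± 0.681 of Cd36+ D. neurons (SD, n = 4 mice), at a median depth of 4741 UMIs. After each cell was thinned to 3000 UMIs, which left out 25 shallower neurons, the share was 87.8% ± 1.54. Free RNA gives a low background in droplet data: Cd36 was found in 0.333% of Dorsal neurons (median depth 4616) and in 0.757% of Mv2 microvillar cells (median depth 5081), a cell type taken as lacking it, or in 0.226% and 0.628% after thinning. Nqo1 was found in 99.4% of Cd36+ D. neurons (96.6% thinned) and in 2.51% of Mv2 cells (1.20% thinned).

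**Figure D1:**
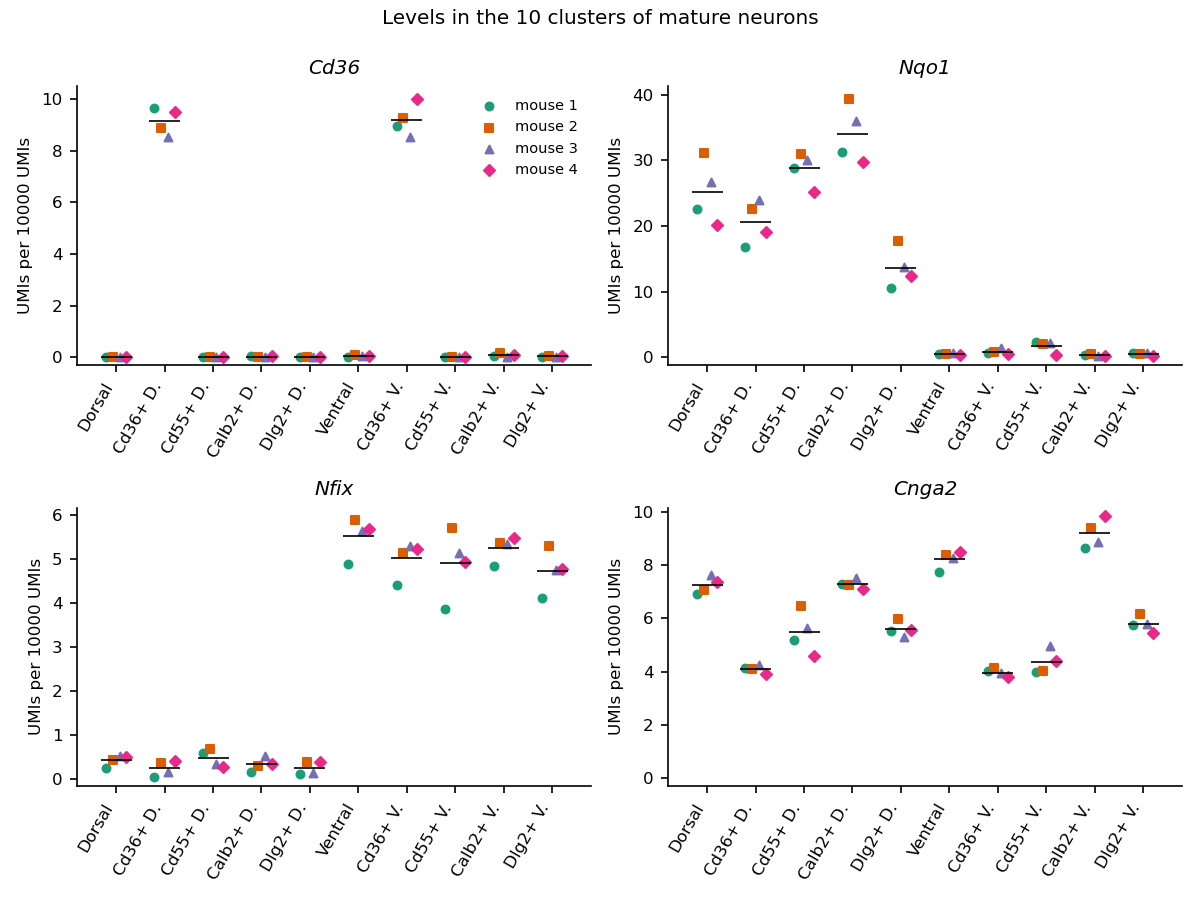
Levels of Cd36, Nqo1, Nfix and Cnga2 in the 10 clusters of mature neurons, in UMIs per 10000 UMIs (vertical axes), with 1 point per mouse and a line at the mean of 4 mice. Cd36+ D. shares high Cd36 with Cd36+ V., and high Nqo1 and low Nfix with the dorsal clusters, and Cnga2 is near 4 in Cd36+ D., Cd36+ V. and Cd55+ V.

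Markers of other cells that a droplet could hold were low in both clusters. None of the 4 adipocyte genes of a list that includes Adipoq and Plin1 had a UMI in any Cd36+ D. neuron, and 5 of 7 endothelial genes were at 0. The summed level of the macrophage and immune list ran from 0 to 0.144 over the 4 mice (Dorsal 0.0430 to 0.0717), with 2 of its 8 genes at 0, and that of the endothelial list from 0.0339 to 0.117 (Dorsal 0.0243 to 0.0593). Basal cell genes summed to 0 to 0.256 (Dorsal 0.0269 to 0.0889), sustentacular genes to 0.252 to 0.940 (Dorsal 0.247 to 0.519) and microvillar genes to 0.294 to 0.733 (Dorsal 0.345 to 0.438). Blood genes summed to 0.102 to 1.65 (Dorsal 0.154 to 1.48). All of these ranges overlap between the clusters.

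The 197 neurons used 31 receptors, out of 798 among all clustered neurons and 263 among Dorsal neurons. These receptors came almost wholly from 2 places in the genome. In the class I locus, 15 receptors were used by 117 neurons, and in a class II locus at the distal end of chromosome 10, 15 receptors were used by 79 neurons. The remaining neuron used Olfr38, on chromosome 6. For 11 of the 31 receptors, every clustered neuron was Cd36+ D., and for 24 of them at least 50% were; these 24 accounted for 182 of the 197 neurons. The 5 commonest receptors were used by 76 neurons (38.6%), against 11.7% for the 5 commonest receptors of Dorsal neurons.

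Olfr553 was the commonest receptor, with 9, 6, 3 and 3 neurons in mice 1 to 4, and all 21 of its clustered neurons were Cd36+ D. (Wilson 95% interval of the share from 84.5% to 100%). It lies on the minus strand at chr7:102611281-102618218 of GRCm38, in the class I locus. Olfr810, at chr10:129787289-129794917 on the minus strand, followed with 3, 3, 5 and 6 neurons, which were 17 of its 21 clustered neurons (81.0%). The other 4 Olfr810 neurons were Cd36+ V. Both receptors were thus found in Cd36+ D. neurons of each mouse.

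Olfr665, at chr7:104878031-104882906 on the plus strand, was used by 14 Cd36+ D. neurons of 17 clustered, and its neighbour Olfr666, at chr7:104891822-104895952 on the minus strand, by 13 of 14. Olfr813, at chr10:129855367-129858722 on the plus strand, was more divided, with 11 Cd36+ D. neurons of 19. All clustered neurons of Olfr601 (9), Olfr605 (8), Olfr622, Olfr654 and Olfr667 (7 each) and of Olfr656 and Olfr659 (6 each) were Cd36+ D. Olfr822 had 7 of 8, Olfr554 had 7 of 12 and Olfr812 had 6 of 10. In all, 12 receptors were seen in Cd36+ D. neurons of each of the 4 mice and 5 in those of 1 mouse. Olfr815, chosen after its values were seen, had all 4 of its neurons in mouse 1.

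**Figure D2:**
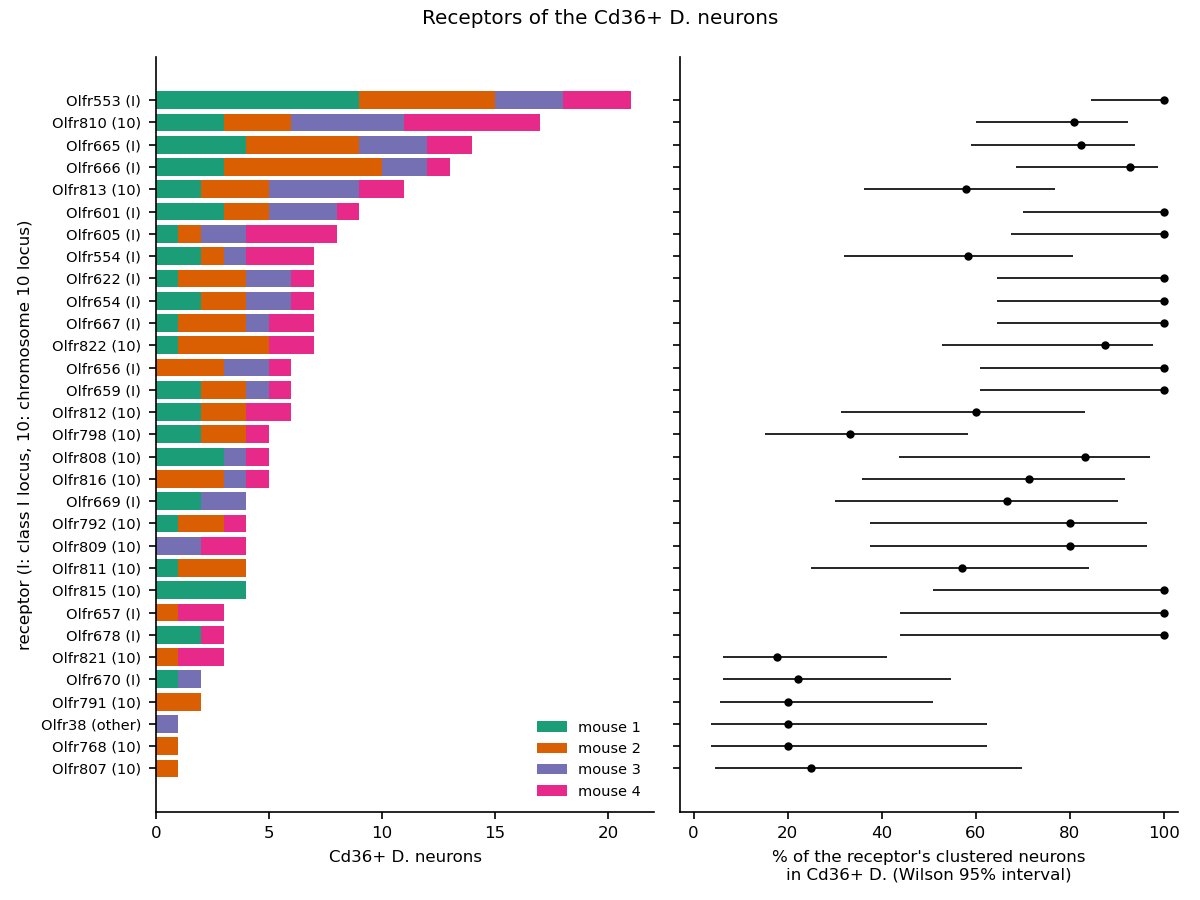
Left, Cd36+ D. neurons per receptor (horizontal axis), split by mouse; right, the percent of all clustered neurons with that receptor that were Cd36+ D., with Wilson 95% intervals. The 21 Olfr553 neurons come from all 4 mice, and 11 receptors sit at 100%.

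The receptors of the 2 loci are unlike each other in sequence. A conserved stretch of 30 bases at the end of the third transmembrane segment, read from the longest open reading frame of each GENCODE M21 transcript, is shown for the 4 commonest receptors of each locus, to show how those of the cluster differ between the loci. The capitals mark positions 4 and 8, counted from 1 at the 5′ end, where all 15 class I receptors and all 15 chromosome 10 receptors of the Cd36+ D. neurons differ (G4T and T8A, class I base given before the position).
Olfr553: atgGcttTcgaccgctatgtggccatctgt
Olfr665: atgGctcTcgaccgctatgtggctatatgc
Olfr666: atgGcccTggaccgctatgtagccatctgc
Olfr601: atgGccaTtgatcgctatgtggccatctgt
Olfr810: atgTcctAtgacagatatgtagccatctgc
Olfr813: atgTcctAtgatcgctatgtggctatttgc
Olfr822: atgTcctAtgacagatatgtagccatctgc
Olfr812: atgTcctAtgatcgctatgtagccatctgc

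The same bases were also found in receptors that no Cd36+ D. neuron used. Among receptors with clustered neurons but none in Cd36+ D., 42 of the 56 class I receptors with the stretch and 29 of the 36 on chromosome 10 had the same bases at both positions. Over the whole open reading frame, identity between a class I and a chromosome 10 receptor of the cluster ranged from 48.1% to 53.6% (225 pairs, median 51.2%). It ranged from 52.3% to 89.9% within class I (105 pairs, median 58.5%) and from 57.5% to 95.1% within chromosome 10 (105 pairs, median 68.3%). Olfr798 and Olfr792 (95.1%), and Olfr810, Olfr816 and Olfr822 among themselves (93.0% to 94.5%), were at least 90% identical. The transcript ends that the libraries read were not compared. Whether reads were split between these receptors, which would make their counts uncertain, was thus not tested.

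Position along the loci was uneven. The class I locus spans chr7:102476579-105369355 and holds 157 annotated receptor genes, of which 93 had clustered neurons. Of its 1054 clustered neurons, 484 were Dorsal, 166 Dlg2+ D., 117 Cd36+ D., 114 Calb2+ D. and 89 Cd55+ D., named after the synaptic scaffold Dlg2, the calcium-binding protein calretinin and the complement regulator Cd55. Receptors used mostly by Cd36+ D. neurons (14) were fewer than those used mostly by Dorsal neurons (34) and lay between them. Olfr665, Olfr666, Olfr667 and Olfr669 follow each other in the order of receptors with neurons, and just before them come Olfr656, Olfr657 and Olfr659, in a stretch that also holds Olfr655 (30 Dorsal neurons of 37 clustered) and Olfr661 (29 of 30). Olfr552, with 28 Dorsal neurons of 29, directly precedes Olfr553.

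The chromosome 10 locus spans chr10:128989431-130214403, with 68 receptor genes, 52 of them with clustered neurons. Most of its 642 clustered neurons were ventral: 302 were Cd36+ V. and 120 Ventral, against 79 Cd36+ D. and 36 Dorsal. Of the 10 receptors here that were used mostly by Cd36+ D. neurons, 8 followed each other in the order of receptors with neurons, from Olfr808 to Olfr816, with at least 57.1% of each one's neurons in Cd36+ D.; Olfr792 and Olfr822 lay apart. Olfr806, 2 places before the run, had 21 Cd36+ V. neurons of 22, and Olfr818, the next after it, had 11 of 11; both were chosen after their values were seen.

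**Figure D3:**
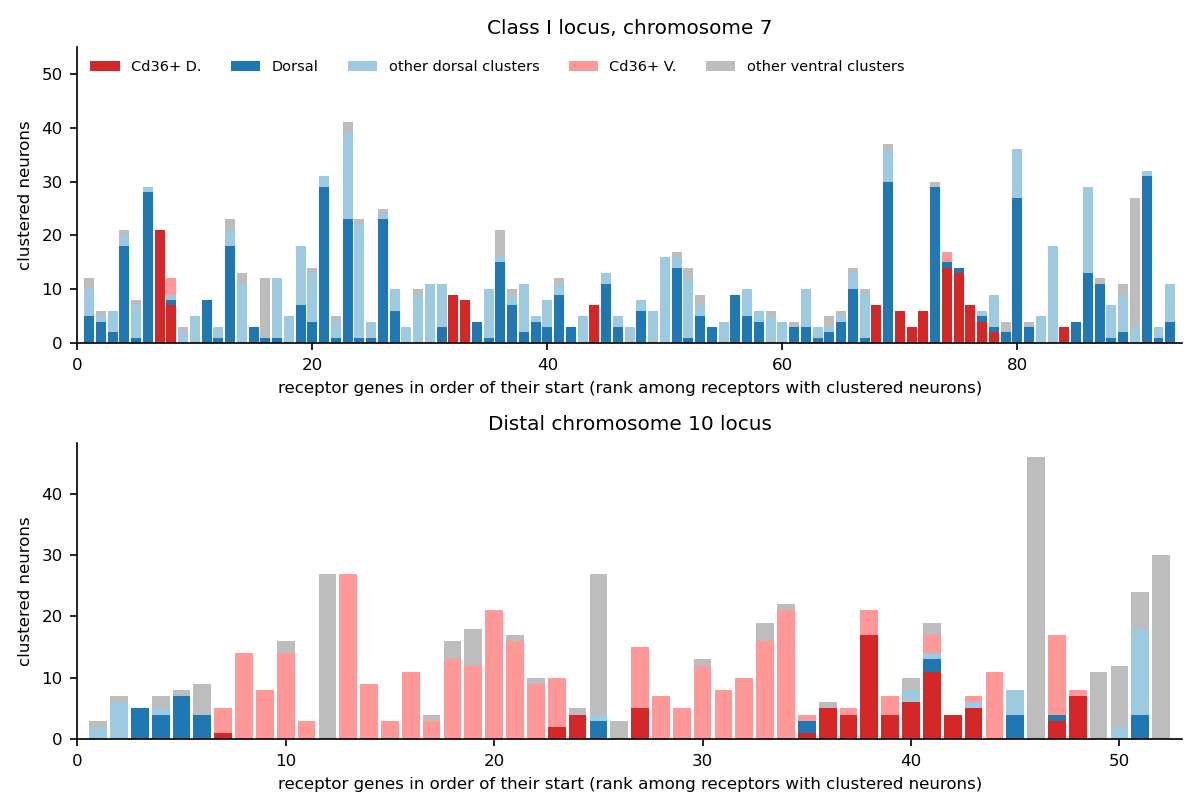
Clustered neurons per receptor (vertical axes) with receptors ordered by gene start along the class I locus (top) and the distal chromosome 10 locus (bottom); colours give the cluster of the neurons. Cd36+ D. receptors lie singly or in short runs among Dorsal ones in the class I locus and stand side by side from rank 36 to rank 43 on chromosome 10.

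Class I receptors were used by 63.5%, 57.1%, 64.1% and 53.5% of Cd36+ D. neurons in mice 1 to 4, and by 36.4%, 36.6%, 30.2% and 27.4% of Dorsal neurons. The ranges did not overlap, and the difference was 26.9 percentage points ± 5.50 (SD, n = 4), higher in 4 of 4 mice, with p = 0.125 in an exact two-sided sign-flip permutation test. That is the smallest p that 4 mice allow, so no such test here could pass 0.05. Chromosome 10 receptors were used by 36.5%, 42.9%, 33.3% and 46.5% of Cd36+ D. neurons and by 2.46%, 4.10%, 2.30% and 1.21% of Dorsal neurons. The difference was 37.3 points ± 6.21 (SD, n = 4), a description, since this locus was set apart after the data were seen. In Cd36+ V. neurons, chromosome 10 receptors had a share of 58.5% ± 1.98 and class I receptors one of 1.08% ± 1.09.

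Of the 31 receptors of Cd36+ D. neurons, 9 also occurred in Dorsal neurons, a share near the 263 of all 798 clustered receptors. These 9 were used by 56 Cd36+ D. neurons and by 11 Dorsal neurons. In Cd36+ V. neurons, 14 of the 31 occurred, against 67 of all 798. The number of neurons per receptor was tested between Cd36+ D. and Dorsal for the 117 receptors with at least 5 neurons in both clusters together (edgeR quasi-likelihood test, mouse as a block). In it, 29 receptors passed an adjusted p of 0.05 (24.8% of those tested), 18 of them with more neurons in Cd36+ D. (15.4%) and 11 with fewer (9.40%). At an unadjusted p under 0.05 there were 37. The 18 were all the receptors with at least 5 Cd36+ D. neurons, and each had at most 2 Dorsal neurons. They entered the test through the cluster where they are frequent, so their number and share follow in part from the filter. The split by direction depended on the scaling of the neuron counts: 29 calls came from the number of neurons with a receptor as the library size (median log2 change of all receptors −3.22), whereas TMM scaling gave 2 higher and 98 lower (median −4.86) and DESeq2 gave 4 higher and 23 lower (median −2.74). None of the 29 changed sign under these scalings. The lower calls numbered 2 without mouse as a replicate block, 3 with receptors of at least 2 neurons, and 1, 0, 3 and 0 without mouse 1, 2, 3 or 4. The higher calls in those settings numbered 19, 15, and 14, 8, 15 and 12.

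The receptor with the lowest adjusted p was Olfr553, with 21 Cd36+ D. neurons and no Dorsal neuron (edgeR adjusted p = 3.55e-19), followed by Olfr810, with 17 and none (edgeR adjusted p = 9.37e-16). Olfr665, with 14 and 1 neurons, and Olfr666, with 13 and 1, came next (edgeR adjusted p = 8.87e-10 and 4.34e-08). The other receptors called higher were Olfr813, Olfr601, Olfr605, Olfr554, Olfr654, Olfr667, Olfr622, Olfr822, Olfr812, Olfr659, Olfr656, Olfr808, Olfr798 and Olfr816. All of the 18 lie in one or the other of these loci. Of the 18, Olfr553 and Olfr810 were also called with TMM scaling, and these with Olfr665 and Olfr666 by DESeq2. Without mouse 2, those 4 and Olfr554, Olfr601, Olfr605 and Olfr813 were called, 8 in all. Among the 11 with fewer neurons, all at 0 in Cd36+ D., 7 were class I (Olfr655, Olfr689, Olfr661, Olfr586, Olfr672, Olfr591 and Olfr552) and 4 lay elsewhere (Olfr1361, Olfr1176, Olfr446 and Olfr1406). Olfr1361, for example, had 5, 10, 13 and 18 Dorsal neurons in mice 1 to 4 (edgeR adjusted p = 0.00652).

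The level of receptor transcripts overlapped between the clusters. Cd36+ D. neurons had 83.4, 93.6, 100.03 and 90.3 receptor UMIs per 10000 in mice 1 to 4, against 97.2, 102.6, 99.6 and 102.9 in Dorsal neurons. The difference was −8.71 ± 6.44 (SD, n = 4; exact sign-flip permutation p = 0.25, in a design that cannot go under 0.125). Among neurons with class I receptors, Cd36+ D. had 82.9, 96.7, 90.7 and 82.8 and Dorsal 96.4, 113.7, 107.8 and 112.1, lower in each mouse with ranges that just overlap; this difference was not tested.

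The other genes are described next, with no test, since they made the clusters. Of 3667 genes with at least 0.5 UMIs per 10000 in either cluster, 33 (0.900%) were at least 2-fold higher in Cd36+ D. than in Dorsal neurons in each of the 4 mice, on the scale of log2(UMIs per 10000 + 0.05), and 24 (0.654%) at least 2-fold lower, 1.55% in all. After Cd36 itself, with a mean log2 ratio of 7.31, the largest was Tshz1, a zinc finger transcription factor of the teashirt family. Tshz1 stood at 9.29, 10.5, 9.34 and 9.51 in Cd36+ D. neurons and at 0.178, 0.326, 0.371 and 0.196 in Dorsal neurons, and its mean in Cd36+ V. neurons was 10.4 ± 1.06. Its neighbours on chromosome 18 were higher too: Zadh2, an oxidoreductase whose gene lies 356 bases from Tshz1 on the other strand, had means of 0.537 and 0.0477, and the zinc finger gene Zfp407, 30.5 kb further on, had means of 2.34 and 0.248. No coding gene lies between them.

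Cd55, which protects cells from complement, stood at 8.95, 9.67, 9.53 and 7.52 against a Dorsal range from 0.502 to 0.859. It marks another dorsal cluster by name, and there it had a mean of 14.7. Tppp3, a tubulin-binding protein, had a mean of 5.33 ± 0.252 against 0.326 ± 0.110. The remaining genes of the 15 with the largest ratios were lower in level. They included Klkb1, which encodes plasma prekallikrein (0.985 against 0.0280), Dio2, the deiodinase that activates thyroid hormone (1.03 against 0.0524), Nppc, which encodes C-type natriuretic peptide (1.34 against 0.0934), the protocadherin Pcdh11x (1.45 against 0.0730) and the collagen Col27a1 (1.32 against 0.0891). Cfap52, Zpld2, S100z and Gm42680 completed them, with means from 0.575 to 0.702. Of these 15 genes, S100z alone was lower in Cd36+ V. (0.0374) than in Dorsal neurons (0.0719).

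Among genes that were lower, Ptn, which encodes the secreted growth factor pleiotrophin, stood at 0.0678, 0, 0 and 0.0587 in Cd36+ D. neurons and at 4.98, 4.67, 4.63 and 5.17 in Dorsal neurons, with 3 UMIs in all in the former. The metalloprotease Adam28 had a single UMI in Cd36+ D. neurons, against a Dorsal mean of 1.18 ± 0.0326. Mslnl, a mesothelin-like gene, had 0.169 to 0.646 against 3.32 to 4.50. Cadps2, which primes dense-core vesicles for release, had means of 0.0441 and 1.13, and the tubulin gene Tuba4a 0.0415 and 0.868. The others of the 15 with the lowest ratios were 2010204K13Rik, Clip4, Hdac9, D930020B18Rik, Gk5, Kcna6, Fezf1, Arap2, Macrod1 and Zfp462. They had Dorsal means from 0.520 (Clip4) to 1.52 (Macrod1) and Cd36+ D. means from 0.0266 to 0.348. Each of the 15 also had a lower mean in Cd36+ V. than in Dorsal neurons. The Cd36+ V. means were 0.0189 for Ptn, 0.0229 for Adam28, 0.654 for Mslnl, 0.0789 for Cadps2 and 0.0381 for Tuba4a.

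To test gene differences without the clusters as the groups, neurons were grouped by their receptor. For each mouse, receptors were assigned to a cluster from the other 3 mice (at least 3 clustered neurons, at least 50% of them in that cluster), and all clustered neurons with those receptors in the mouse left out were summed, whatever their own cluster. The authors clustered the 4 mice together, so the assignment was not wholly separate from the mouse left out. Between 21 and 24 receptors were chosen for Cd36+ D., and in the mouse left out 43 of 51, 50 of 57, 37 of 44 and 35 of 46 neurons with them were Cd36+ D. (83.1% ± 4.93, SD, n = 4). Between 119 and 132 receptors were chosen for Dorsal.

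Of 9087 genes tested, 701 (7.71%) differed between neurons with Cd36+ D. receptors and neurons with Dorsal receptors (edgeR quasi-likelihood test, Benjamini-Hochberg adjusted p under 0.05), 368 higher (4.05%) and 333 lower (3.66%). Cd36 stood at 9.10, 8.81, 7.97 and 8.73 in neurons with Cd36+ D. receptors and at 0, 0, 0.00582 and 0.0386 in neurons with Dorsal receptors, given as a description since Cd36 names the cluster. Tshz1 stood at 8.79, 11.7, 9.51 and 9.84 against 0.206, 0.247, 0.279 and 0.262 (log2 change 5.35 ± 0.10, SE; edgeR adjusted p = 5.96e-82). For both genes, the lowest value with Cd36+ D. receptors lay far above the highest with Dorsal receptors. Most neurons of this grouping are also in the cluster (165 of 198), so it is no separate set of cells. All 33 genes described above as higher and all 24 as lower were called again in the same direction. Such genes helped to make the clusters, so their calls are no separate support for them. The clustering drew on non-receptor genes at large, so the same limit holds for all tests and p-values between receptor groups below.

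Sgms2, a sphingomyelin synthase, had 0.556, 0.548, 0.454 and 0.407 against at most 0.00750 (log2 change 7.12 ± 0.57, SE; edgeR adjusted p = 3.88e-21). The phospholipid flippase gene Atp8b4 changed by 5.47 and Cyp4v3, a cytochrome P450 that hydroxylates fatty acids, by 4.39. The transcription factor genes Dlx5 and Bhlhe40 rose by 4.56 and 4.49, Klkb1 by 4.95, Dio2 by 4.54 and the unnamed gene Gm26512 by 4.72, all on the log2 scale. Among the decreases was Nrp1, which encodes neuropilin 1, a semaphorin receptor that guides olfactory axons. Nrp1 had no UMI in neurons with Cd36+ D. receptors in any mouse, against 0.311, 0.337, 0.343 and 0.440 in neurons with Dorsal receptors. With a floor of 3 counts over the group this is at least 11.5-fold lower (edgeR adjusted p = 1.02e-10). Nrp1 was low with Cd36+ V. receptors too, at 0.0231 from 6 UMIs. Its difference between Cd36+ D. and Cd36+ V. receptors did not pass (edgeR adjusted p = 0.344). Other decreases from Dorsal, with only 1 to 6 UMIs each with Cd36+ D. receptors, were Ptn (−7.85), Adam28 (−6.68), Gm42912 (−4.75), Clip4 (−4.56), 2010204K13Rik (−4.42), Cadps2 (−4.37), Tuba4a (−4.15), the phospholipase-like Plaat1 (−3.55) and the histone deacetylase gene Hdac9 (−3.40), as log2 changes.

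**Figure D4:**
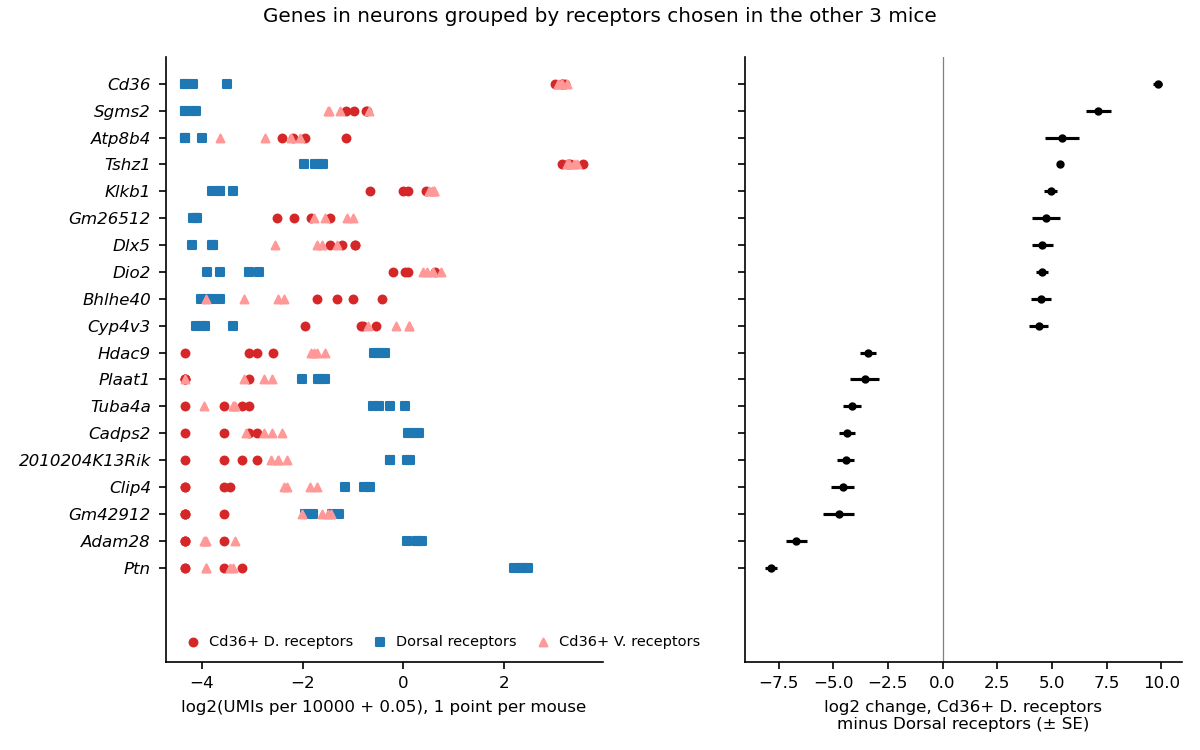
Left, levels as log2(UMIs per 10000 + 0.05) with 1 point per mouse for neurons with Cd36+ D., Dorsal and Cd36+ V. receptors chosen in the other 3 mice; right, the log2 change between Cd36+ D. and Dorsal receptors with its SE. In each gene shown, the Cd36+ D. points lie apart from the Dorsal points; Nrp1, at 0 in all Cd36+ D. points, is left out.

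Olfactory transduction genes were mostly lower. All 21 genes of that list were tested: 11 fell, against the 3.66% of all genes, 1 rose and 9 did not pass, with a median log2 change of −0.27, against −0.002 over all genes tested. Stoml3, a stomatin-like protein of the olfactory cilium, stood at 48.0, 44.8, 44.3 and 45.5 against 85.4, 81.2, 78.1 and 81.1 (log2 change −0.80 ± 0.04, SE; edgeR adjusted p = 8.15e-38). All subunits of the cyclic nucleotide-gated channel fell, Cnga2 by 0.72, Cnga4 by 0.70 and Cngb1 by 0.76 on the log2 scale. Adcy3, the adenylyl cyclase, fell by 0.54, Ano2, the calcium-activated chloride channel, by 0.61, Gnal, the olfactory G protein α subunit, by 0.42, and Gng13, a γ subunit, by 0.27. The exception that rose was Cabp4, a calcium-binding protein (1.08). Omp, by contrast, had a log2 change of −0.08 (edgeR adjusted p = 0.313).

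Immediate early genes, which neurons transcribe quickly after stimulation, and other genes that follow neuronal activity made up a list of 14, of which 10 were tested. Of these, 6 rose, 1 fell and 3 did not pass (median log2 change 0.71), where 4.05% of all genes rose and 3.66% fell. Fos stood at 5.77, 3.84, 5.84 and 3.84 against 2.00, 1.27, 1.34 and 1.44 (log2 change 1.73 ± 0.09, SE; edgeR adjusted p = 7.79e-35). Junb rose by 2.39, Egr1 by 2.34 and Fosb by 1.85. By cluster and receptor class, Junb averaged 2.50 in class I Cd36+ D. neurons and 0.335 in chromosome 10 ones, against 0.530 and 0.254 in Dorsal neurons with class I and with other receptors. Egr1 averaged 1.71 and 0.379, against 0.382 and 0.160. For both genes, the chromosome 10 neurons lay between the Dorsal means. Fos averaged 6.76 in class I Cd36+ D. neurons, against 2.25 and 1.12 in Dorsal neurons with class I and with other receptors. In chromosome 10 Cd36+ D. neurons it averaged 2.50, with 5.05, 1.40, 1.67 and 1.87 in mice 1 to 4. S100a5, a calcium-binding protein whose transcript follows odor stimulation, stood at 307, 237, 291 and 210 against 149, 151, 173 and 166 (0.74 ± 0.05, SE; edgeR adjusted p = 1.95e-29), and Pcp4l1 rose by 0.67 (higher in 3 of 4 mice). S100a5 averaged 341 in class I Cd36+ D. neurons but 123 in chromosome 10 ones. The latter lies below its Dorsal means of 156 with class I and 169 with other receptors. Pcp4l1 averaged 23.4 in class I Cd36+ D. neurons but 5.22 in chromosome 10 ones, below the Dorsal means of 10.3 with class I and 12.8 with other receptors. Lrrc3b was the member that fell, by 0.76. In calcium binding, a list that shares S100a5 and Pcp4l1 with it, 6 of 10 tested genes rose and 1 fell (median 0.71; 4.05% and 3.66% of all genes), among them S100z (3.19), S100a6 (2.07) and Necab2 (1.01), with Hpcal1 at −1.57. S100a6 averaged 1.56 in class I Cd36+ D. neurons but 0.152 in chromosome 10 ones, below the Dorsal means of 0.323 with class I and 0.246 with other receptors.

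Axon guidance genes moved both ways. Of 29 tested genes, 6 rose, 7 fell and 16 did not pass (median log2 change −0.17), against 4.05% and 3.66% of all genes. Besides Nrp1, Nrp2 had no UMI in neurons with Cd36+ D. receptors, against 0.145, 0.105, 0.134 and 0.116 with Dorsal receptors, at least 4.20-fold lower (edgeR adjusted p = 0.000206). The protocadherin genes Pcdh8, Pcdh9 and Pcdh19 fell by 3.35, 1.75 and 1.22 on the log2 scale. Pcdh17 rose by 0.39, and Pcdh7 and Pcdh10 did not pass. Robo2, a Slit receptor, rose by 0.83, Plxna1, a semaphorin co-receptor, by 0.72, and Sema3a, the ligand of neuropilin 1, by 1.95. Plxna3 fell by 0.96. Of the 3 dorsal zone genes, Robo2 rose. Nqo1, by which the authors called both clusters dorsal, had a log2 change of −0.26 (lower in 3 of 4 mice), given as a description. Acsm4, an acyl-CoA synthetase, had a log2 change of −0.20 that did not pass (edgeR adjusted p = 0.137). Of the 6 ventral zone genes, 3 fell (Nfix, Nrp2 and Cidea) and none rose (median −1.92). Nfix, by which the authors called clusters ventral, is likewise a description.

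Of 40 genes of fatty acid uptake and handling, 19 were in the fit, among them Cd36, which names the cluster and is not counted as a result. Of the others, the acyl-CoA synthetase gene Acsl6 rose (log2 change 0.27, edgeR adjusted p = 0.0153), none fell and 17 did not pass, a share near that over all genes (4.05% rose and 3.66% fell). The median log2 change of the 19 was 0.15. Of the 40, 15 had no UMI in any Cd36+ D. neuron. Of 11 genes for partners of CD36 signalling, such as the kinase Fyn and the store-operated calcium sensor Stim1, 6 were tested and 0 were called in this edgeR test, with a median of −0.17 and 3 of the 11 at 0 in Cd36+ D. neurons. Of the 10 tested genes of the immature neuron list, 4 rose (Dpysl3, Crmp1, Marcksl1 and Tubb3; 4.05% of all genes), none fell and 6 did not pass, Gap43 among them (median 0.18). Of the genes that name the other clusters, Cd55 (3.25) and Dlg2 (1.16) were higher and Calb2 did not pass. The authors characterized the plain Dorsal cluster by the absence of these markers and of Cd36, so these values are a description. Dlg2 averaged 3.22 in class I Cd36+ D. neurons but 0.707 in chromosome 10 ones, against 0.733 and 1.26 in Dorsal neurons with class I and with other receptors. In the lists of other cell types, Coch, from the microvillar list, rose by 0.86, and none of the 4 sustentacular, 1 endothelial and 4 blood genes tested was called; no basal, immune or adipocyte gene was high enough to be tested.

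With class I receptors only in both groups, a comparison added after the data were seen, 325 of 4893 genes (6.64%) were called (edgeR, 167 higher and 158 lower). Tshz1 (5.48), Cd55 (2.40), Fos (1.66), Junb (2.38), S100a5 (1.30) and Cabp4 (0.69) were higher there too, and Ptn (−7.02), Stoml3 (−0.90), Cnga2 (−0.61) and Gnal (−0.47) lower. Ano2, at −0.19, did not pass (edgeR adjusted p = 0.546), and Calb2, which did not pass over all receptors, was lower by 2.69 (edgeR adjusted p = 9.82e-10). The values of Cd55 and Calb2 are a description here too.

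Against neurons with Cd36+ V. receptors, 456 of the 9087 genes (5.02%) differed in the same edgeR fit, 226 higher (2.49%) and 230 lower (2.53%); without mouse as a replicate block there were 293 calls. Tshz1, at 0.02 ± 0.06 on the log2 scale (SE), did not pass the edgeR test (adjusted p = 0.919). The olfactory transduction list, lower against Dorsal, had a median change of −0.003 here, with 4 genes higher, 1 lower and 16 not passing. The genes with the largest increases were Tafa4, a secreted chemokine-like protein (7.28), Nqo1 (4.36), the nuclear receptor gene Nr2f2 (4.30), Tmem52 (4.24) and S100z (3.91). Tafa4 averaged 1.15 in class I Cd36+ D. neurons, 0.736 in class I Dorsal neurons and 0.0247 in chromosome 10 Cd36+ D. neurons. Nqo1 stood at 15.5, 24.1, 23.7 and 20.1 against 0.707, 1.65, 1.43 and 0.321.

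Nrp2, which encodes neuropilin 2 and marks ventral axons, was at 0 in each mouse against 0.578, 0.671, 0.405 and 0.689, at least 19.3-fold lower (edgeR adjusted p = 3.90e-14). Gm49542 and the monocarboxylate transporter gene Slc16a7 were also at 0, at least 12.6-fold and 7.45-fold lower. The LIM domain gene Pdlim1 and C130074G19Rik, with 1 UMI each, had log2 changes of −6.84 and −6.08. All 3 dorsal zone genes were higher and 5 of 6 ventral zone genes lower, against 2.49% and 2.53% of all genes. Among them are Nqo1 and Nfix, by which the authors called clusters dorsal or ventral, so the values of these genes are a description. The activity list was split: of 10 tested genes, 4 were higher, 3 lower and 3 did not pass. Fos, Junb, Egr1 and Fosb were higher by 1.51, 2.15, 1.92 and 1.44. Kirrel2, also in the axon guidance list, was lower by 1.03, Lrrc3b by 0.67 and S100a5 by 0.19 (edgeR adjusted p = 0.00307 for S100a5). With chromosome 10 receptors only in both groups, Fos had a log2 change of −0.17 that did not pass (edgeR adjusted p = 0.791), the other way from the change over receptors of all loci. Egr1 (0.14) and Fosb (0.34) did not pass either (edgeR adjusted p = 0.935 and 0.793), Junb was not among the genes tested, and S100a5 was lower by 1.67 (edgeR adjusted p = 8.17e-32). In that comparison, added after the data were seen, 138 of 3810 genes (3.62%) were called.

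The difference between the dorsal contrast (Cd36+ D. minus Dorsal receptors) and the ventral one (Cd36+ V. minus Ventral receptors) was tested as an interaction in the same edgeR fit. It was called for 89 of 9087 genes (0.979%), 44 with a larger value in the dorsal contrast (0.484%) and 45 with a smaller one (0.495%); without mouse as a replicate block there were 33 calls. The cadherin gene Cdh26 stood at 0.591, 0.506, 0.419 and 0.582 with Cd36+ D. receptors, and at no more than 0.128 in any mouse with Dorsal or Cd36+ V. receptors (interaction 3.17 ± 0.50, SE; edgeR adjusted p = 1.33e-06). Zpld2 (2.06), Tshz1 (1.43) and Junb (1.77) also had larger values in the dorsal contrast. Class I receptors had a mean share of 59.5% in Cd36+ D. and 1.08% in Cd36+ V. neurons, so the interaction does not separate side from receptor class. Junb averaged 2.50 in class I and 0.335 in chromosome 10 Cd36+ D. neurons, against 0.458 in chromosome 10 Cd36+ V. neurons. For Cdh26 these means were 0.857, 0.0644 and 0.0451. By cluster, Tshz1 averaged 9.66 in Cd36+ D. and 10.4 in Cd36+ V. neurons, so its interaction goes with means of 0.268 in Dorsal and 0.713 in Ventral neurons. Zpld2 was highest with Olfr822 (7.12, 7 Cd36+ D. neurons, 0 in mouse 3), against at most 2.31 with the other receptors of at least 5 such neurons. The protocadherin gene Pcdh10 had a log2 change of 0.01 ± 0.20 (SE) from Dorsal, and its interaction of 3.02 goes with means of 0.136 with Cd36+ V. and 1.10 with Ventral receptors.

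Within the cluster, neurons with class I receptors and neurons with chromosome 10 receptors differed in a set of genes. This comparison was added, and its genes were chosen, after the data were seen. It used 33, 36, 25 and 23 class I neurons and 19, 27, 13 and 20 chromosome 10 neurons in mice 1 to 4. Of 2168 genes tested, 71 (3.27%) were called, 37 higher with class I receptors (1.71%) and 34 lower (1.57%) (edgeR quasi-likelihood test, mouse as a block); 269 had an unadjusted p under 0.05, and DESeq2 called 17. Cd36 itself did not pass (9.87, 10.8, 9.43 and 9.40 against 9.49, 6.56, 7.17 and 9.85; log2 change 0.34, edgeR adjusted p = 0.0827), nor did Nqo1 (−0.01, edgeR adjusted p = 0.982).

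S100a5 stood at 367, 321, 357 and 331 with class I receptors and at 110, 147, 97.5 and 144 with chromosome 10 receptors (log2 change 1.54 ± 0.06, SE; edgeR adjusted p = 1.98e-124), with receptor genes left out of the total. The groups lay far apart. In Dorsal neurons its mean was 156 ± 10.8 with class I and 169 ± 15.0 with other receptors, between both groups of Cd36+ D. neurons, and in Cd36+ V. neurons with chromosome 10 receptors it was 321 ± 42.7. Pcp4l1 differed by 2.18, Nppc by 3.64, S100a6 by 3.20, Dlg2 by 2.26, and the immediate early genes Junb, Egr1, Fosb and Fos by 2.86, 2.09, 1.48 and 1.44 on the log2 scale. Cd55 was also higher with class I receptors, by 0.80 (edgeR adjusted p = 5.78e-09). Higher with chromosome 10 receptors were Calb2 (−5.28), the oxysterol-binding protein gene Osbpl1a (−2.52), 9530034E10Rik (−2.06), Klkb1 (−1.33) and the stathmin gene Stmn4 (−1.14).

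Receptors of the same locus differed among themselves. Summed over mice, in the 18 receptors with at least 5 Cd36+ D. neurons, S100a5 ran from 59.9 (Olfr667) to 617 (Olfr553) in 11 class I receptors, and from 0.777 (Olfr812) to 159 (Olfr798) in 7 chromosome 10 receptors. Olfr553, Olfr666, Olfr656 and Olfr554 had S100a5 from 483 to 617, together with Pcp4l1 from 38.9 to 53.2, Nppc from 3.84 to 4.75 and Dlg2 from 2.93 to 7.81. The 7 remaining class I receptors had at most 298 for S100a5, 17.3 for Pcp4l1 and 1.84 for Dlg2. Within mice, S100a5 was 610, 664, 496 and 705 with Olfr553 in mice 1 to 4, 689, 404, 591 and 792 with Olfr666, and 123, 137, 162 and 193 with Olfr810. The values with Olfr553 and Olfr666 overlapped, with Olfr666 the higher in 3 of 4 mice, and those with Olfr810 lay under both in each mouse. With Olfr554, S100a5 was 536, 258, 638 and 346, and in mouse 2 it lay under the 287 of Olfr622. Pcp4l1 in mouse 3 was 28.5 with Olfr665 and 24.6 with Olfr654, above the 24.1 with Olfr553.

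Calb2 came from a single receptor for the most part. The 6 Olfr812 neurons, 2 each in mice 1, 2 and 4, held 67 of the Calb2 UMIs of all Cd36+ D. neurons (74.4%), at levels of 26.0, 23.5 and 30.4, and they had S100a5 at 0, 1.02 and 1.79. Mouse 3 had no Olfr812 neuron, and Calb2 in its chromosome 10 neurons stood at 1.82. The neighbouring Olfr811, chosen after its values were seen, had Calb2 at 0 and S100a5 at 329 and 507 in its 4 Cd36+ D. neurons of mice 1 and 2. In receptors with at least 5 neurons, Cdh26 and Tafa4 were at 0 in all 7 of chromosome 10, and at 0.245 or more and 0.484 or more in all 11 of class I. Over all 79 chromosome 10 neurons, Cdh26 stood at 0.258 in mouse 3 and Tafa4 at 0.0990 in mouse 1, and both were at 0 in the other mice. Cd36 varied less, from 8.17 (Olfr553) to 14.03 (Olfr659) with class I receptors and from 5.66 (Olfr798) to 10.5 (Olfr812) with chromosome 10 receptors.

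**Figure D5:**
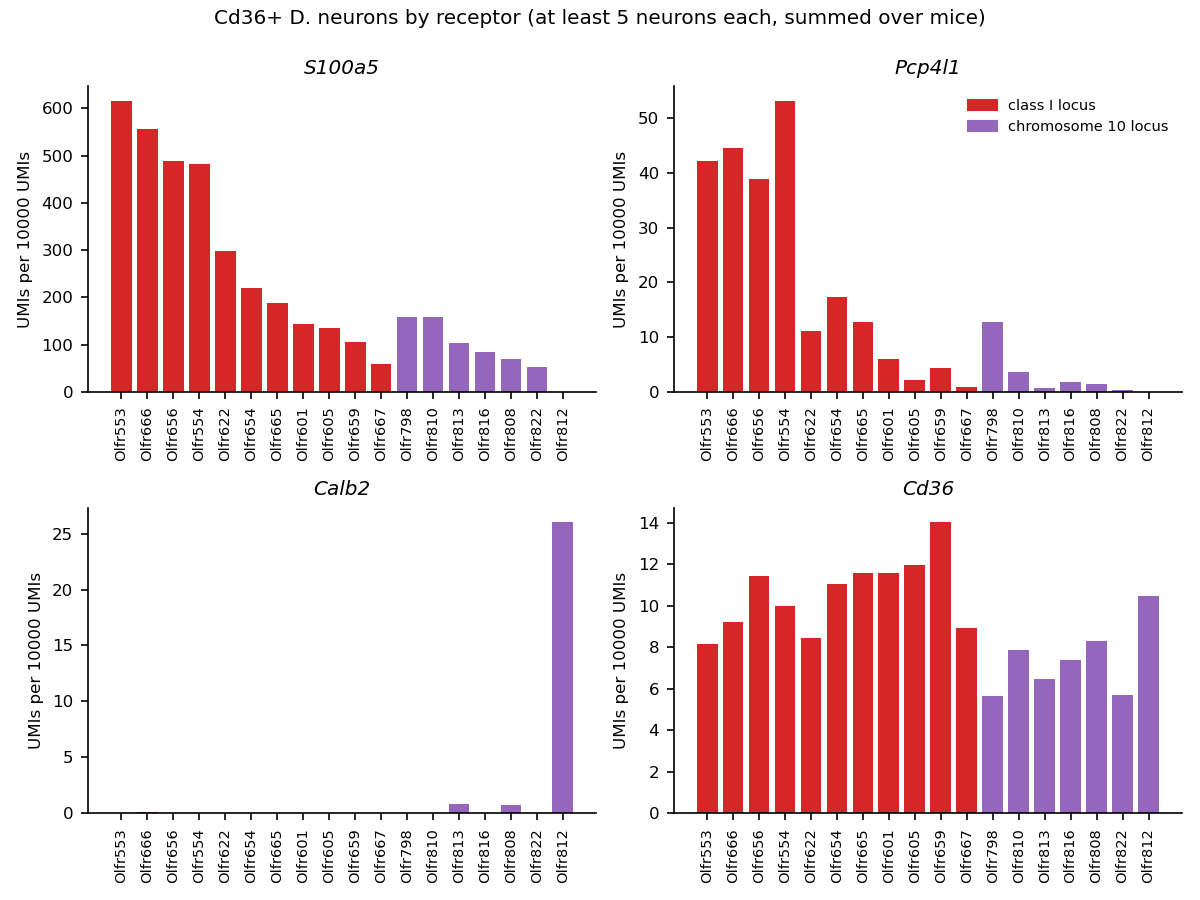
Levels of S100a5, Pcp4l1, Calb2 and Cd36 in Cd36+ D. neurons by receptor (vertical axes, UMIs per 10000 UMIs, summed over the mice), for receptors with at least 5 neurons; there are no error bars because most bars rest on few neurons per mouse. S100a5 and Pcp4l1 are highest in 4 class I receptors, and Calb2 is high in Olfr812 alone, while every bar of Cd36 lies between 5.66 and 14.03.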

How the data were processed

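Cells of the main olfactory epithelium of 4 mice were profiled as 1 library each. The authors aligned reads to GRCm38 and counted UMIs with Cell Ranger 6.0.1, and they deposited raw UMI counts per gene and cell with a table of cluster labels and receptor identities, which were used as given. The same deposited table gives each cell's percent of UMIs from mitochondrial genes, as the authors computed it. Their mature neuron clusters were made with Seurat after integration of the 4 mice, without receptor genes and for receptors with at least 3 neurons.

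From the counts, UMIs were summed per mouse and group and expressed per 10000. Tests used edgeR 4.0.16 in R 4.3.3 (glmQLFit, glmQLFTest, TMM, filterByExpr; Benjamini-Hochberg over all features tested, threshold 0.05) with the mouse as a block, because groups with the same number came from the same animal and library. DESeq2 1.42.0 was an alternative. In the make-up test the library size was the number of neurons with a receptor. Scripts ran in Python 3.11.15 and were tested on simulated data. No cell was removed as a doublet: Scrublet's automatic threshold marked 3, 2, 4 and 36 barcodes in mice 1 to 4 and so did not work, and as an alternative the 4% of barcodes with the highest scores were left out, 2 of them Cd36+ D. neurons. Other alternatives changed scaling, filters, depth, the share of neurons that assigns a receptor, and the mice used. Intervals and floors (3 counts) cover counting error only. A receptor locus was a run of receptor genes with gaps of at most 1 Mb in GENCODE M21.

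The named genes were Cd36 and Nqo1, the 15 with the largest mean log2 ratio each way to Dorsal, the 10 largest changes each way among genes called against Dorsal receptors and 5 each way in the other contrasts (at least 0.2 UMIs per 10000 in the higher group), list members, the 15 commonest receptors and the receptors called. The neurons and gene lists were chosen with earlier results of these data known.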

Additional observations from a re-analysis of the deposited data

Results flagged for a closer look

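Of 89 sets of 4 mouse values checked with Dixon's test, 7 held a mouse far from the others; chance gives about 1 in 20. In Cd36+ D. neurons, Zfp407 stood at 2.77 in mouse 2, Adam28 at 0.0339 in mouse 1, with 0 in the other mice, and Clip4 at 0 in mouse 4. Adam28 rests on 1 UMI and Clip4 on 3 UMIs in these neurons. Their flags thus follow from low counts, for which the rate of 1 in 20 does not hold. By locus, Selenom stood at 3.32 in class I neurons of mouse 3, Fos at 5.09 in chromosome 10 neurons of mouse 1, Ppp3ca at 0.375 in class I neurons of mouse 3 and Mef2a at 4.95 in chromosome 10 neurons of mouse 3.

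The contrast of Cd36+ D. with Dorsal receptors differed from that of Cd36+ V. with Ventral receptors for 89 genes in the edgeR interaction test, which does not separate side from receptor class. The log2 difference between the contrasts was largest for Cdh26 (3.17), Pcdh10 (3.02), Calb2 (2.16), Zpld2 (2.06) and Cfap54 (2.00) among genes with a larger value on the dorsal side. On the other side it was −3.66 for Gm42912, −2.48 for Acsm4, −2.18 for Tnni3k, −2.02 for Cluh and −1.94 for Gm42680.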

How the results depend on the processing

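Of the summary values recomputed under an alternative, 67 kept their direction and side of the threshold or, for counts, a total within 1.5 times, while 24 became weaker and 2 stronger; the cause was not tested. A like total can hide a shift: DESeq2 called 27 receptors, 4 higher and 23 lower, of which 15 were among the 29. The tests of shares and of the receptor level could pass with no setting, since 4 mice are too few. Receptors called between Cd36+ D. and Dorsal numbered 18 with a minimum of 2 neurons and 100 with TMM scaling, against 29. Genes called against Dorsal receptors numbered 383 after thinning to 3000 UMIs and 325 with class I receptors only, against 701. Against Cd36+ V. receptors there were 220 after thinning and 138 with chromosome 10 receptors only, against 456, and the interaction gave 48 after thinning, against 89. Class I against chromosome 10 neurons gave 38 after thinning and 17 with DESeq2, against 71. Genes at least 2-fold different from Dorsal in each mouse, 57 in all, numbered 90 with a minimum level of 0.2 and 29 with one of 1.

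Without mouse as a replicate block, calls fell to 293 against Cd36+ V. receptors, the lower ones from 230 to 138. Interaction calls fell to 33, from 44 to 18 with a larger value in the dorsal contrast and from 45 to 15 with a smaller one. The lower receptor calls fell from 11 to 2 and the genes higher with class I receptors from 37 to 24. No other count of calls moved by more than 1.5 times. Leaving out a mouse moved calls to between 8 (mouse 2) and 18 (mouse 3) for receptors, 441 (mouse 1) and 534 (mouse 4) against Dorsal receptors, 270 (mouse 3) and 314 (mouse 4) against Cd36+ V. receptors, 42 (mouse 2) and 73 (mouse 4) in the interaction and 46 (mouse 3) and 65 (mouse 4) by locus.

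With chromosome 10 receptors only, the change against Cd36+ V. receptors turned for Stoml3 (0.14), Ckb (−0.081), Pcdh7 (0.046) and Fos (−0.17). No other named gene or receptor was reversed under any alternative run, and 344 of their values lost the threshold. The other 2233 kept it or had no adjusted p there, and genes left out of an alternative fit were not counted. The small number of neurons, 39 to 63 per mouse, limits what low genes can show, and genes under about 0.03 UMIs per 10000 rest on 3 counts or fewer.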

Other observations

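Outside mature neurons, the immature neuron, progenitor, basal, sustentacular and microvillar clusters were compared. Among these, the level of Cd36 was highest in the basal cell cluster that the authors named HBC2, with a mean of 2.08 ± 0.399 UMIs per 10000 (SD, n = 4 mice) and at least 1 UMI in 61.0% ± 8.08 of its cells (43.4% after thinning to 3000 UMIs). In iOSN2, an immature neuron cluster, the mean was 0.227 ± 0.0309.

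More than 1 receptor was detected in 30.4% ± 11.9 of Cd36+ D. neurons and in 25.3% ± 7.04 of Dorsal neurons (SD, n = 4), ranges that were not tested against each other.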
